A study of Mus musculus with 8 samples.

Results

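Kinesins were examined across ventricular RNA libraries from mouse embryos (Mus musculus) in which cardiomyocytes had lost Rps19bp1. The members are the 38 rows, of 52778 in the deposited table, that stand on a primary chromosome and carry a symbol of Kif followed by a number, with an optional letter from a to c and an optional digit. They were sorted by textbook role into 12 mitotic kinesins, 13 transport kinesins, 6 kinesins of cilia or hedgehog signalling and 7 others, chiefly regulators of microtubule dynamics. Kinesins named under other symbols, such as Cenpe and Kifc1, were kept apart as partners.

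Kinesins are motor proteins that bind microtubules and hydrolyse ATP. Mitotic kinesins push spindle poles apart, align chromosomes and build the midzone where the cell divides, and their mRNAs are made mainly in G2 and M phase under the repressor complex DREAM and its activating counterparts. Transport kinesins carry vesicles, mitochondria and ciliary cargo between cell divisions and are expressed in cycling and resting cells alike. Cardiomyocytes of the midgestation ventricle still divide while they contract, so motors of both kinds are expressed in the same tissue.

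The study collected 4 conditional knockout (cKO) and 4 control libraries at embryonic day 11.5. Embryos of the cKO group carried Rps19bp1 fl/fl together with Xmlc2-Cre +/-, a Cre line active in cardiomyocytes, so other cell types of the ventricle keep the gene. The labels call the other group control without giving its alleles, and their genotype field names C57BL/6 WT for all 8 libraries. The series text describes dissected ventricles, biological replicates and a poly(A) kit, whereas the extraction text describes cortical neurons and rRNA depletion. Whether embryos were pooled is not stated.

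Values are TPM, which divide reads by transcript length, so levels can be compared between genes. Between 15336 and 15752 rows reached 1 TPM in a library, and correlations between libraries ran from 0.986 to 0.994. The depth behind the values is unknown. Rps19bp1 lay at 40.9, 44.2, 34.7 and 40.0 TPM in control replicates 1 to 4 and at 15.2, 11.8, 13.7 and 19.2 TPM in cKO replicates 1 to 4 (log2 change -1.37, exact permutation p = 0.0286, the smallest that 4 against 4 can give). Mitochondrial transcripts took 11.4% to 12.2% of TPM in control and 13.2% to 16.2% in cKO, with the highest share in cKO replicate 3. In bulk tissue, fewer cells of a type and less RNA per cell cannot be told apart.

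Both kinds of motor were abundant in the control ventricle. Of the 38 kinesins, 28 had a mean of at least 1 TPM and were tested. Kif5b, the ubiquitous heavy chain of conventional kinesin, was the most abundant at 99.3 TPM ± 4.07 (SD, n = 4). Kif20a, which carries the chromosomal passenger complex to the spindle midzone, followed at 78.5 TPM ± 5.40 (SD, n = 4). The transport motors Kif13a, Kif1b and Kif1c and the mitotic motors Kif22, Kif11 and Kif23 came next, between 58.4 and 70.2 TPM on average. Within that stretch the order is not resolved, because each of these genes overlapped the next one in the range of its 4 control libraries. The same was true of 17 of the 27 neighbouring pairs in the whole order. At the lower end of the tested kinesins stood the neuronal transport motor Kif1a (3.68 TPM ± 0.563, SD, n = 4) and the centriolar kinesin Kif24 (3.40 TPM ± 0.623, SD, n = 4).

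**Figure D1:**
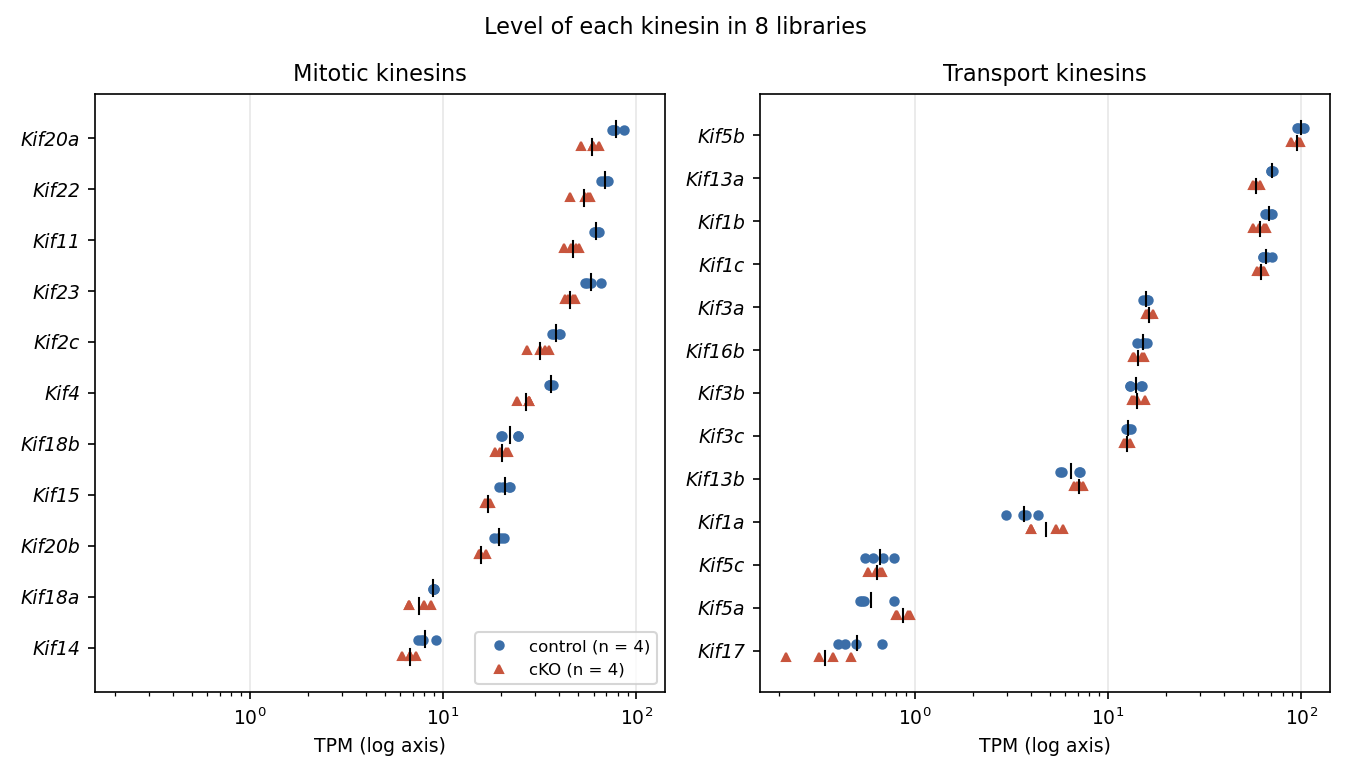
TPM of 11 mitotic kinesins (left; Kif2b, at 0 in all 8 libraries, is left out) and 13 transport kinesins (right) on a log axis. Circles are the 4 control libraries, triangles the 4 cKO libraries and black ticks the group means; cKO points lie to the left of control points for most mitotic kinesins, while the groups mingle for most transport kinesins.

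Mitotic kinesins were lower in cKO. All 11 tested mitotic kinesins had a lower fitted value, with a median log2 change of -0.29 against -0.02 over all tested genes. Of these 11, 7 fell past the threshold of limma's test (adjusted p under 0.05 over 15541 genes), and 0 rose. Over all tested genes 4.23% were called lower and 2.16% higher. The groups did not overlap in 10 of the 11, against 10.3% of all tested genes with every cKO library lower and 5.33% with every cKO library higher. The fitted falls were modest, from 0.12 to 0.41 on the log2 scale, and the median cKO mean was 80.5% of control.

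Among the motors that build and hold the spindle, Kif11 (chr19:37376382-37421863, plus strand, GRCm38) is the plus-end motor that slides antiparallel microtubules apart and the target of monastrol. It stood at 63.7, 60.6, 60.8 and 63.5 TPM in control replicates 1 to 4 and at 48.6, 50.4, 42.2 and 46.1 TPM in cKO replicates 1 to 4. Every cKO library lay below every control library. The log2 change was -0.40 (SE 0.0581, limma adjusted p = 0.00599), which left 75.4% of the control mean. Kif15 (chr9:122951081-123018733, plus strand) can keep spindles bipolar when Kif11 is inhibited. It measured 21.8, 19.4, 22.2 and 20.5 TPM in control replicates 1 to 4 and 17.4, 16.9, 16.5 and 17.1 TPM in cKO replicates 1 to 4 (log2 change -0.29, limma adjusted p = 0.0205). Kif11 and its backup motor thus both fell, and their groups were separate. Kif20b (chr19:34922335-34975750, plus strand), a kinesin-6 motor of late mitosis, measured 20.7, 19.3, 19.97 and 18.3 TPM in control and 16.6, 15.6, 15.3 and 15.6 TPM in cKO, again with no overlap (log2 change -0.29, limma adjusted p = 0.0188).

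Motors that act on chromosomes fell as well. Kif4 (chrX:100626065-100727271, plus strand) binds chromatin, helps condense chromosome arms and sets the length of the midzone together with Prc1. It measured 37.1, 35.4, 35.7 and 35.8 TPM in control replicates 1 to 4 and 27.8, 27.9, 24.2 and 27.7 TPM in cKO replicates 1 to 4. Control libraries were nearly level, and cKO replicate 3 was the lowest. Its log2 change was -0.41 (SE 0.0562, limma adjusted p = 0.00471), the smallest adjusted p among the kinesins. Kif22 (chr7:127027729-127042467, minus strand), the chromokinesin that pushes arms away from the poles, measured 70.3, 68.2, 71.4 and 65.7 TPM in control and 57.7, 56.1, 45.6 and 54.0 TPM in cKO. The groups were separate, with a log2 change of -0.37 (limma adjusted p = 0.0196).

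Kif2c and Kif18a tune microtubule ends at kinetochores, and in both every cKO library lay below every control library, although neither passed the threshold. Kif2c, a depolymerase that corrects wrong attachments, lay between 36.4 and 40.4 TPM in control and between 27.2 and 35.1 TPM in cKO (log2 change -0.27, limma adjusted p = 0.0663). Kif18a, which damps chromosome movements at the plate, lay between 8.83 and 8.99 TPM in control and between 6.67 and 8.70 TPM in cKO. Its log2 change was -0.23 (limma adjusted p = 0.145), and its row overlaps Mettl15 (6.76 TPM) on the opposite strand. Kif18b, a regulator of astral microtubules, had the smallest fitted change of the class. Its groups overlapped, at 19.9 to 24.5 TPM in control and 18.5 to 21.7 TPM in cKO (log2 change -0.12, 95% interval -0.31 to 0.07). Kif2b, the remaining kinesin-13 of the class, was listed at 0 in all 8 libraries.

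Kif20a, Kif23 and Kif14 also act in cytokinesis, and Kif20a and Kif23 were called but Kif14 was not. Kif20a (chr18:34624624-34633277, plus strand) measured 86.4, 77.3, 75.4 and 74.7 TPM in control replicates 1 to 4 and 63.8, 59.6, 52.0 and 59.6 TPM in cKO replicates 1 to 4. It had the largest fitted change of the class (log2 change -0.41, SE 0.0703, limma adjusted p = 0.0114). Its row overlaps Brd8 (45.9 TPM) and Cdc23 (61.2 TPM) on the opposite strand, so its reads are less certain if strand was not used in counting. Kif23 (chr9:61917277-61946810, minus strand), which forms centralspindlin with Racgap1, measured 65.2, 55.6, 58.5 and 54.2 TPM in control and 48.0, 47.0, 42.7 and 44.3 TPM in cKO (log2 change -0.35, limma adjusted p = 0.0165). Control replicate 1 was the highest for both Kif20a and Kif23, and all cKO libraries were below all controls. Kif14, which recruits citron kinase to the midbody, lay between 7.40 and 9.21 TPM in control and between 6.12 and 7.27 TPM in cKO, with a log2 change of -0.23 (limma adjusted p = 0.131).

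**Figure D2:**
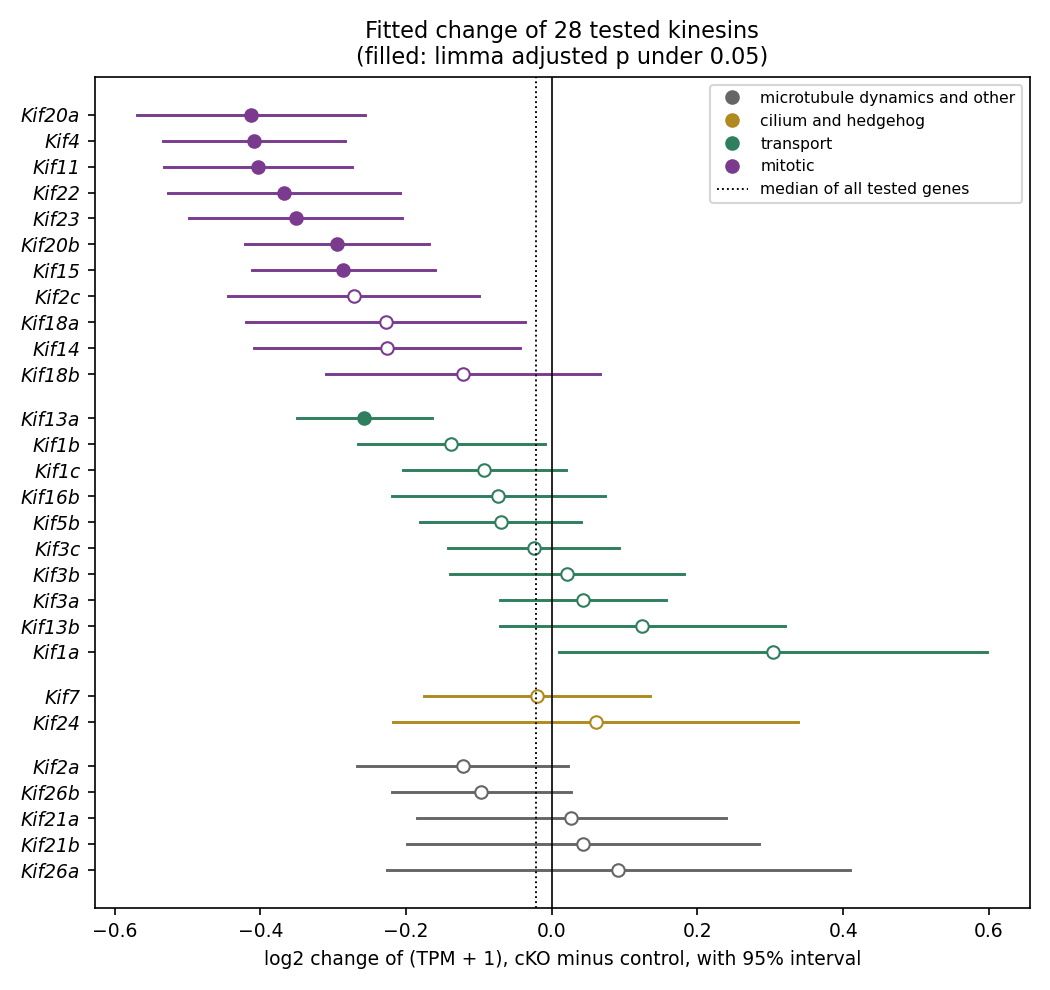
Fitted log2 change of (TPM + 1), cKO minus control, for the 28 tested kinesins, with 95% intervals from limma; filled circles have an adjusted p under 0.05 and the dotted line is the median of all tested genes (-0.02). All 11 mitotic kinesins lie left of 0 with 7 filled, and Kif13a is the only filled circle outside that class.

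Some of these calls were lost when a single library was left out. Without control replicate 1, and again without control replicate 3, 4 mitotic kinesins were called, since Kif15, Kif20b and Kif22 then had limma adjusted p between 0.0544 and 0.0625. Without cKO replicate 3, 5 were called, and Kif15 (limma adjusted p = 0.0539) and Kif20b (adjusted p = 0.0505) were not, lying just above 0.05. Kif4, Kif11 and Kif20a were called under all 18 alternatives. The fitted direction of all 11 was lower under every one of them.

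One library stood out within the cKO group. In cKO replicate 3, 10 of the 11 tested mitotic kinesins had their lowest value of all 8 libraries, and the remaining gene, Kif18a, was lowest in cKO replicate 4. The median mitotic kinesin stood at 73.1% of its control mean in cKO replicate 3 and at 78.4% to 83.8% in the other cKO libraries. No transport kinesin was lowest in that library. The same library had the highest mitochondrial share, 16.2%, and TPM shares a fixed total. After rescaling without mitochondrial and globin genes, 8 of the 11 were still lowest there, and 9 kept every cKO library below every control library. The class median was then -0.26, beside 0.01 over all tested genes. The share of all tested genes that were lowest in cKO replicate 3, or kept the groups apart after rescaling, is not given here.

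**Figure D3:**
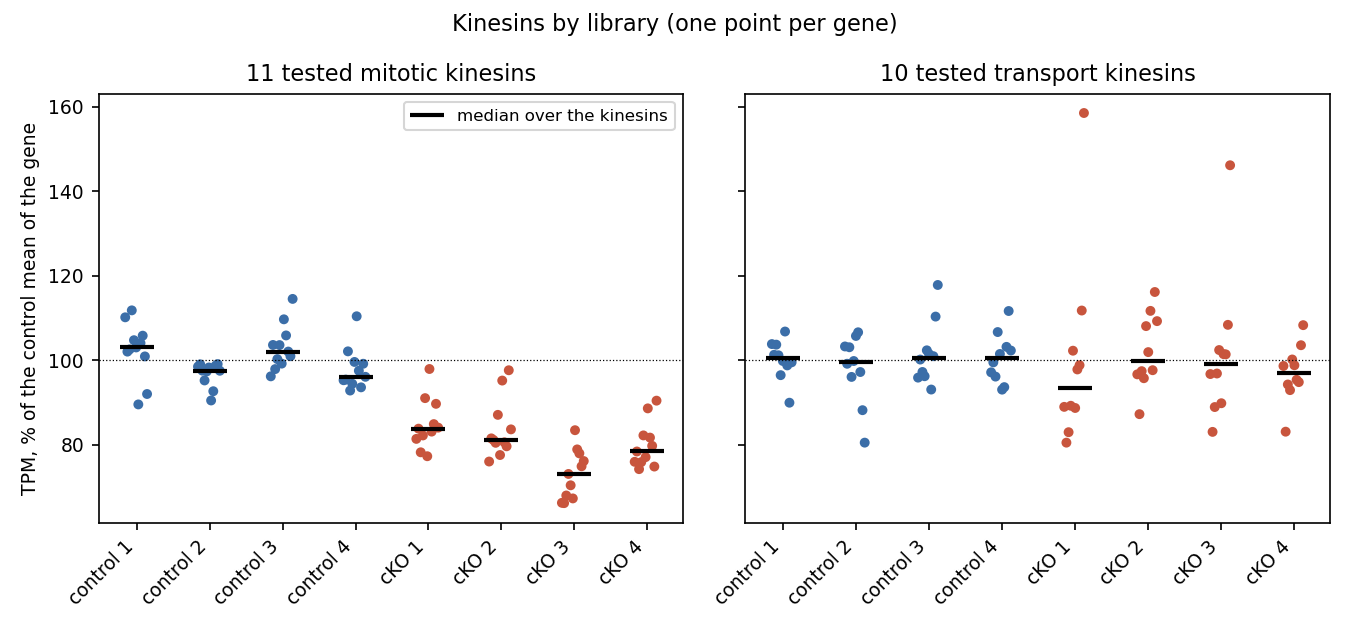
Each tested kinesin's TPM as a percentage of its control mean, by library, for 11 mitotic (left) and 10 transport (right) kinesins; each point is a gene and bars are medians. Mitotic medians lie between 73.1% and 83.8% in cKO libraries, and transport medians between 93.5% and 99.8%, where the high points in cKO replicates 1 and 3 are Kif1a.

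Genes that work with the mitotic kinesins were lower too. Of 18 listed partners and regulators, 18 were tested, 18 had a lower fitted value, 13 fell past the threshold and 0 rose, with a median log2 change of -0.30. Of all 15541 tested genes, 8678 had a lower fitted value and 4.23% were called lower. Cdca8, the borealin subunit of the passenger complex that Kif20a carries, measured 108, 100.1, 105 and 109.6 TPM in control replicates 1 to 4 and 80.8, 84.4, 68.9 and 77.1 TPM in cKO replicates 1 to 4 (log2 change -0.44, limma adjusted p = 0.00624). The fitted log2 difference was -0.42 for Hmmr, a spindle-pole protein (adjusted p = 0.0122 by limma), and -0.42 for the spindle protein Dlgap5 (adjusted p = 0.0128). Cdca8, Hmmr and Dlgap5 each had all cKO libraries below all controls. Numa1, which anchors dynein at spindle poles, was the exception, at -0.01 (limma adjusted p = 0.965). Among 3 mitotic kinesins under other symbols, the kinetochore motor Cenpe fell (log2 change -0.23, limma adjusted p = 0.0433), whereas the minus-end motor Kifc1 (-0.20, adjusted p = 0.203) and Kifc5b (-0.21, adjusted p = 0.106) were not past the limma threshold. Kifc1 and Kifc5b are close copies whose reads may be split between them.

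Since the mitotic kinesins moved together, their promoters were searched for elements known from genes of G2 and M phase. The cell cycle genes homology region (CHR), with the letters TTTGAA or TTCGAA, is the element through which DREAM and MuvB complexes bind such genes, and the CCAAT box, with the letters CCAAT, is bound by NF-Y. Both strands were searched in RefSeq windows of GRCm38.p6 that run from 250 bases before to 50 bases after an annotated start. Of the 38 kinesins, 31 had an entry (for each gene the start nearest to the row's own), and no match to one motif overlapped a match to the other. The sequences below run 5′ to 3′ on the gene's strand from 100 bases before to 30 bases after the start. They show 6 mitotic kinesins that fell and, for contrast, Kif13a, the transport kinesin that fell, and Kif3b, a transport kinesin with a CCAAT box. Capitals mark CHR and CCAAT matches, on either strand.
Kif11: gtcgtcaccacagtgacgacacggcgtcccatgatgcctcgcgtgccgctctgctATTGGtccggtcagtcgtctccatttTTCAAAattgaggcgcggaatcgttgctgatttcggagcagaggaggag
Kif15: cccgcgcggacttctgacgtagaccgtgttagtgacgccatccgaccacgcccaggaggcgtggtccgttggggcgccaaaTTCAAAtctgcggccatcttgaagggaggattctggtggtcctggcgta
Kif22: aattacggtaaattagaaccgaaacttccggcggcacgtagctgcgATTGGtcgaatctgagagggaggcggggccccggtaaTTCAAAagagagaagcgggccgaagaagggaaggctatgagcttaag
Kif23: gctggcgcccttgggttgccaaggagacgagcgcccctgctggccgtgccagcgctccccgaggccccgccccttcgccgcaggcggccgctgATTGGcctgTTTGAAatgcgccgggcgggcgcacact
Kif20b: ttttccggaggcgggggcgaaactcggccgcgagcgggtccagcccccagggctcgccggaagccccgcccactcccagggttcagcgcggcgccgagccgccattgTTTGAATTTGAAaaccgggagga
Kif4: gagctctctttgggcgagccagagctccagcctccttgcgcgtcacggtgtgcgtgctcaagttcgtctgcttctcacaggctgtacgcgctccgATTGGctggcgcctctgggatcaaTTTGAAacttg
Kif13a: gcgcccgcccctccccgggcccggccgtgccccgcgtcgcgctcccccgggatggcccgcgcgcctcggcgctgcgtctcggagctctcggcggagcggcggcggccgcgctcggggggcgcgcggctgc
Kif3b: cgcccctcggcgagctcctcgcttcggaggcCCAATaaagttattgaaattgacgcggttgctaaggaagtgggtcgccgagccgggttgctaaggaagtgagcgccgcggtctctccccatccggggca
The windows lie at chr19:37376282-37376411 (plus strand) for Kif11, chr9:122950981-122951110 (plus strand) for Kif15, chr7:127042391-127042520 (minus strand) for Kif22, chr9:61946770-61946899 (minus strand) for Kif23, chr19:34922258-34922387 (plus strand) for Kif20b, chrX:100625965-100626094 (plus strand) for Kif4, chr13:46929689-46929818 (minus strand) for Kif13a and chr2:153291316-153291445 (plus strand) for Kif3b. In Kif11, Kif15 and Kif22 the match nearest to the start is TTCAAA, the reverse strand of the CHR, from 19, 19 and 17 bases before it. In Kif23, Kif20b and Kif4 the CHR lies 3, 8 and 20 bases after the start, and in Kif20b a further copy follows at once. Kif11, Kif22, Kif23 and Kif4 also have a CCAAT match on the reverse strand (ATTGG) between 54 bases before the start and the start itself. The Kif13a window holds neither element.

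A CHR stood in 9 of 11 mitotic kinesin windows of 300 bases and in 0 of 10 transport kinesin windows. The share was 19.5% of 27022 promoters and 13.9% of the 10908 promoters of tested genes. Within 50 bases of the start, a window chosen after the positions were seen, the counts were 7 of 11 and 0 of 10, beside 3.57% of promoters of tested genes. The 6 mitotic kinesins that fell and had an entry all had a CHR within 50 bases. Kif18b, which was tested and not called, had one there as well. Outside both classes, Kif24 and Kif26b, neither of which was called, also had a CHR within 50 bases. Kif2c had its match 103 bases before a start that lies 3852 bases from the row's own start. The start used for Kif14 lies 1547 bases from its row's. Outside the mitotic class, the starts used for Kif3a, Kif26a and Kif27 lie 1668, 2234 and 9798 bases from those of their rows. Positions in all of these genes refer to other starts than the row's. Kif2b, at 0 in every library, is counted among the 11 windows and had no CHR, and Kif18a had none in the window. CCAAT matches were in both classes: 7 of 11 mitotic and 3 of 10 transport windows held one, beside 39.0% for tested genes. Among partners and regulators of mitotic kinesins, 10 of 14 windows held a CHR. A match describes these letters only, and binding was not measured.

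**Figure D4:**
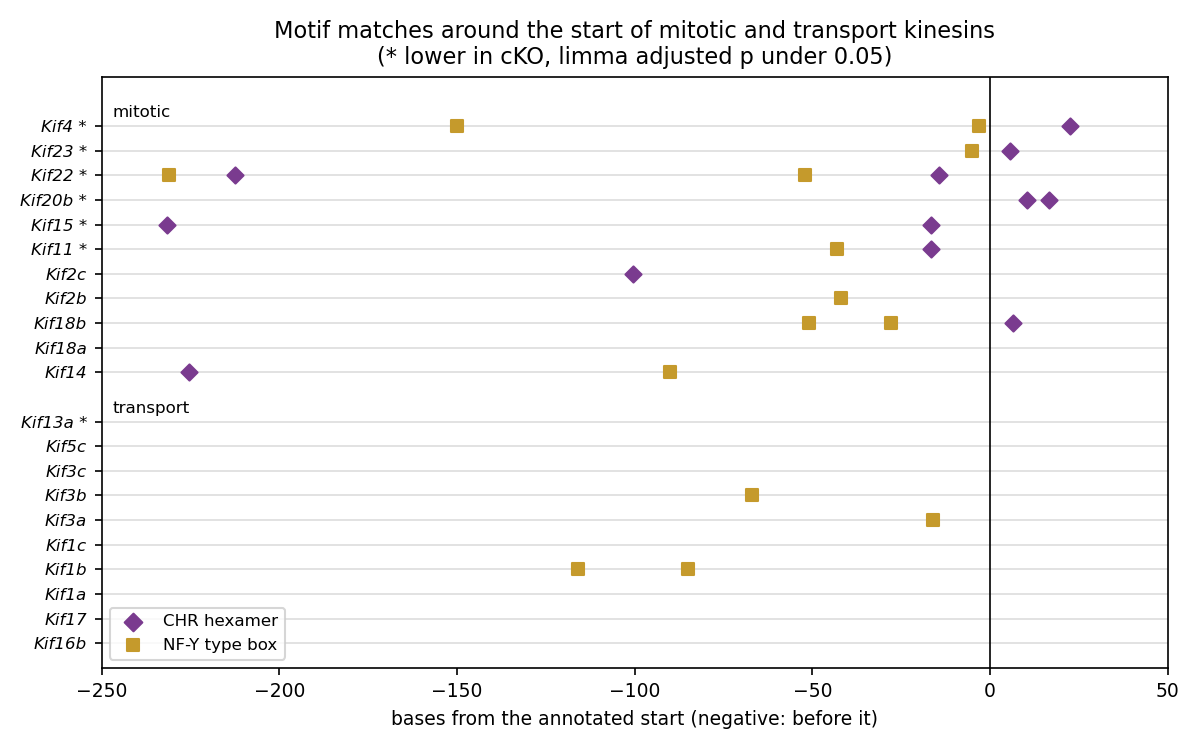
Positions of CHR hexamers (diamonds) and NF-Y type boxes (squares, the CCAAT matches) relative to the annotated start, for 11 mitotic and 10 transport kinesins with a RefSeq promoter entry; asterisks mark genes with an adjusted p under 0.05. Diamonds lie within 50 bases of the start in 7 mitotic kinesins, and no transport kinesin has one.

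Transport kinesins gave 1 call. Of the 13, 10 were tested, 6 had a lower and 4 a higher fitted value, and the median log2 change was -0.05. Only Kif13a passed the threshold, so that 1 of 10 was called, beside 6.4% of all tested genes in either direction. The groups did not overlap in 1 of the 10, against 15.6% of all tested genes.

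Kif13a (chr13:46749087-46929917, minus strand) is a kinesin-3 motor that moves recycling endosomes and cargo from the trans-Golgi network. It measured 71.1, 69.6, 70.3 and 69.8 TPM in control replicates 1 to 4 and 56.5, 61.2, 58.3 and 58.3 TPM in cKO replicates 1 to 4. The groups were far apart relative to their spread, and the cKO mean was 83.4% of control (log2 change -0.26, SE 0.0417, limma adjusted p = 0.00923). The call held under all 18 alternatives, where the change ran from -0.28 to -0.20. Its closest relative Kif13b measured 5.66 to 7.16 TPM in control and 6.64 to 7.45 TPM in cKO, with a log2 change of 0.12 (95% interval -0.07 to 0.32). Kif13a made up 30.6% ± 0.305 of the summed TPM of 6 kinesin-3 transport motors in control and 28.2% ± 0.286 in cKO (SD, n = 4).

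The other kinesin-3 motors were not past the threshold. Kif1b, which carries mitochondria and synaptic vesicle precursors, measured 70.2, 69.8, 65.8 and 65.1 TPM in control replicates 1 to 4 and 56.1, 65.9, 60.2 and 63.8 TPM in cKO replicates 1 to 4 (log2 change -0.14, 95% interval -0.27 to -0.01, limma adjusted p = 0.181). Kif1c, a Golgi and integrin transporter, had a log2 change of -0.09 (95% interval -0.20 to 0.02) and the endosomal motor Kif16b of -0.07 (95% interval -0.22 to 0.07). Kif1a, the axonal motor of synaptic vesicle precursors, measured 3.66, 2.96, 4.33 and 3.76 TPM in control and 5.82, 4.01, 5.37 and 3.98 TPM in cKO. The higher cKO values came from replicates 1 and 3, the groups overlapped, and the log2 change of 0.30 did not pass (95% interval 0.01 to 0.60, limma adjusted p = 0.197).

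Kinesin-1 was almost wholly Kif5b. Of the summed TPM of Kif5a, Kif5b and Kif5c, Kif5b made up 98.4% to 99.0% in the 8 libraries. Kif5b measured 103, 103, 95.2 and 96.4 TPM in control replicates 1 to 4 and 88.3, 96.0, 96.0 and 97.9 TPM in cKO replicates 1 to 4. The groups overlapped, and the log2 change was -0.07 with a 95% interval from -0.18 to 0.04. The neuronal heavy chains Kif5a and Kif5c were under the filter, at 0.523 to 0.946 TPM and 0.553 to 0.787 TPM. All cKO libraries were above all controls for Kif5a, but without a filter its limma adjusted p was 0.187, and its row overlaps Dctn2 (119.6 TPM) on the opposite strand.

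Kinesin-2, the heterotrimer of Kif3a with Kif3b or Kif3c and the adaptor Kifap3 that builds cilia, gave no call. Kif3a measured 15.2 to 16.1 TPM in control and 15.8 to 17.0 TPM in cKO (log2 change 0.04, 95% interval -0.07 to 0.16). Kif3b had a log2 change of 0.02 (95% interval -0.14 to 0.18) and Kif3c of -0.03 (95% interval -0.14 to 0.09). The Kif3c row overlaps 1110002L01Rik (7.28 TPM) on the opposite strand. The sign for Kif3b and Kif3c changed under at least 1 alternative. For Kifap3 the limma adjusted p was 0.973. Kif17, the homodimeric kinesin-2 of dendrites and cilia, was under the filter at 0.215 to 0.674 TPM.

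Partners of the transport motors were called at about the share of all tested genes, 6.4%, or below it. Of 18 listed cargo adaptors and light chains, 16 were tested and 0 were called by limma in either direction. Their median log2 change was -0.03. An unadjusted limma p under 0.05 was found in 1 of the 16, beside 3687 of all 15541 tested genes. The smallest p belonged to the light chain Klc3 (log2 change -0.37, limma adjusted p = 0.178), the membrane cargo Kidins220 (0.12, adjusted p = 0.219) and the vesicle adaptor Madd (-0.16, adjusted p = 0.248). Of 3 transport kinesins under other symbols, Kifc2 (0.16), Kifc3 (0.02) and Stard9 (-0.01) had limma adjusted p between 0.448 and 0.946. Of 22 dynein and dynactin genes, the minus-end transport machinery, 22 were tested and 1 was called, with a median of -0.02. That gene was Nde1, which also serves dynein at the kinetochore and the centrosome. It measured 62.8 to 68.4 TPM in control and 50.6 to 57.3 TPM in cKO (log2 change -0.25, limma adjusted p = 0.0244). The light intermediate chains Dync1li1 (-0.11, adjusted p = 0.179) and Dync1li2 (0.08, adjusted p = 0.301) had the next smallest p in limma.

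Set side by side, the classes took different parts of the kinesin pool. The summed TPM of the 12 mitotic kinesins was 422 ± 15.3 in control and 330.5 ± 24.1 in cKO (SD, n = 4), or 78.3% of control. That of the 13 transport kinesins was 372 ± 6.21 in control and 347 ± 12.3 in cKO, or 93.2% of control, and it was carried mainly by Kif5b, Kif13a, Kif1b and Kif1c. For both classes, the sum in every cKO library was below that in every control library. TPM share a fixed total, and mitochondrial transcripts took 11.4% to 12.2% of it in control and 13.2% to 16.2% in cKO. The sums were not rescaled for this, so a lower sum can reflect the larger mitochondrial share. Mitotic kinesins made up 45.8% to 47.6% of all kinesin TPM in control libraries and 39.7% to 44.9% in cKO libraries, so the ranges did not meet. Transport kinesins made up 40.5% to 42.2% in control and 42.2% to 46.7% in cKO, where the lowest cKO library lay just inside the control range. These shares sum over chosen members and carry no test.

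**Figure D5:**
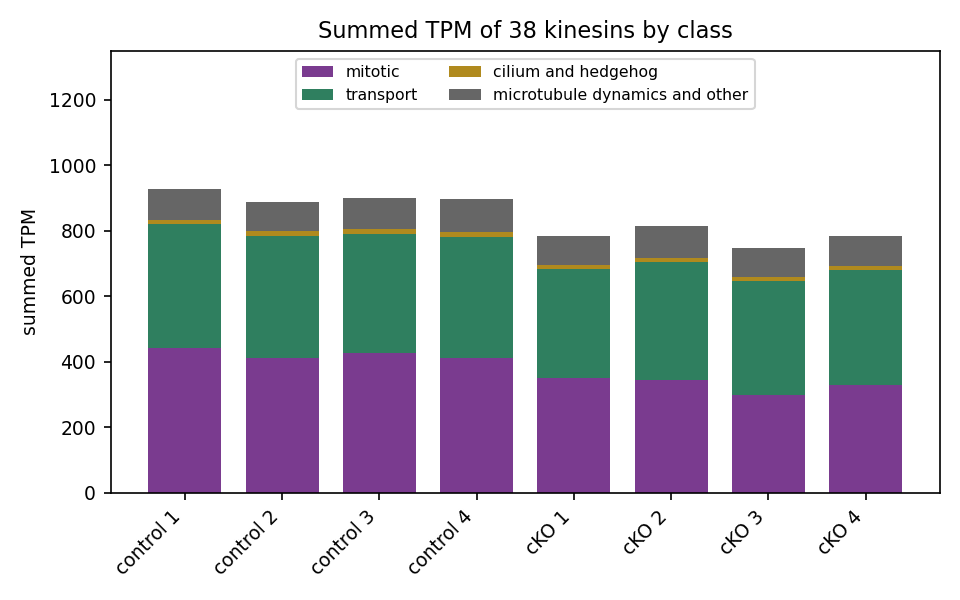
Summed TPM of the 38 kinesins by class in each library, stacked from 0. Mitotic kinesins sum to 410.1 to 442 TPM in control libraries and to 297 to 352 TPM in cKO libraries, while transport kinesins sum to 365 to 379.6 and 330.3 to 359.8 TPM.

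Kinesins of cilia and hedgehog signalling were low and not called. Kif7, which sits at the ciliary tip and regulates Gli proteins, measured 7.69, 7.20, 8.39 and 8.46 TPM in control replicates 1 to 4 and 7.59, 7.63, 8.18 and 7.79 TPM in cKO replicates 1 to 4. The groups overlapped, and the log2 change was -0.02 (95% interval -0.18 to 0.13), with a sign that changed under 3 alternatives. Its row overlaps Ticrr (8.11 TPM) on the opposite strand. Kif24, which restrains cilium assembly at the mother centriole, had a log2 change of 0.06 (95% interval -0.22 to 0.34), which turned to -0.04 without control replicate 3. Kif6, Kif9, Kif19a and Kif27, kinesins of motile cilia or related structures, were under the filter, and their highest value in any library was 1.18 TPM. Of 10 listed motile cilium genes 2 were tested and 0 were called by limma. The tested genes were Rsph1 (log2 change -0.34, limma adjusted p = 0.10) and Ccdc40 (0.04, adjusted p = 0.876), while Foxj1 was under the filter. Rsph1 had an unadjusted limma p under 0.05, beside 3687 of all 15541 tested genes. Of 9 hedgehog pathway genes 7 were tested and 1 was called, higher in cKO, beside 2.16% of all tested genes called higher and 6.4% in either direction. Gli3 rose from 5.35 to 7.0 TPM in control to 7.72 to 9.41 TPM in cKO (log2 change 0.39, limma adjusted p = 0.0369), while Gli2 (0.34, adjusted p = 0.0799) and Stk36 (0.16, adjusted p = 0.351) did not pass.

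The remaining kinesins were not called either. Kif26b, an atypical kinesin without motor activity that works in mesenchyme, was the most abundant of them. It measured 41.9, 40.9, 44.5 and 44.6 TPM in control replicates 1 to 4 and 38.2, 43.5, 39.1 and 39.7 TPM in cKO replicates 1 to 4 (log2 change -0.10, 95% interval -0.22 to 0.03). Kif2a, a depolymerase of spindle poles and growing neurites, measured 25.8 to 28.8 TPM in control and 22.9 to 27.5 TPM in cKO. Its log2 change was -0.12 (95% interval -0.27 to 0.02), and its row overlaps Dimt1 (9.31 TPM) on the opposite strand. Kif21a (0.03), Kif21b (0.04) and Kif26a (0.09) had limma adjusted p between 0.743 and 0.897, and the sign of Kif21a and Kif21b changed when single libraries were left out. Kif12 and Kif28 did not exceed 0.247 TPM.

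Cell type markers are given beside the kinesins. Of all tested genes, 4.23% were called lower, 2.16% higher and 6.4% in either direction. A lower fitted value was found for 8678 of the 15541 and a higher one for 6863. Of 12 cardiomyocyte genes 12 were tested, 10 had a lower fitted value, 1 was called lower (Nkx2-5) and 0 were called higher. The cardiomyocyte sums were 49512 to 54003 TPM in control and 48138 to 51190 TPM in cKO. Of 9 mesenchymal genes 9 had a higher fitted value and 4 were called higher. Their sums were 585 to 762 TPM in control and 871 to 1060.1 TPM in cKO. Of 7 epicardial genes 7 had a higher fitted value and 4 were called higher. The epicardial sums were 364 to 425 TPM in control and 428 to 526 TPM in cKO. Of 9 endocardial and endothelial genes 7 had a higher fitted value and 0 were called by limma, with sums of 731 to 777 TPM and 779.9 to 884 TPM. Of 8 erythroid genes 7 had a lower fitted value and 0 were called. They summed to 1969 to 7147 TPM in control and 1753 to 3755 TPM in cKO. Macrophage genes summed to 14.7 to 24.0 TPM and 14.7 to 32.6 TPM. Of the 5 tested, 4 had a higher fitted value and 0 were called. Of 14 neuronal genes 7 stayed under 1 TPM in every library and Neurod1 was at 0 in all, and their sums of 164 to 183 TPM in control and 159 to 169 TPM in cKO came mostly from Camk2a. Among the 6 neuronal genes tested, 4 had a lower and 2 a higher fitted value, while 1 was called lower (Nefl) and 0 were called higher. Fitted changes on the log2 scale were -0.50 for Nefl, 0.43 for Tubb3 and 0.01 for Stmn2, beside 0.30 for Kif1a. Tubb3, Stmn2 and Kif1a were not past the threshold. The part of these cell types in the kinesin values was not tested.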

How the data were processed

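RNA-seq of 8 ventricular samples was used as the table of TPM that the authors deposited; no counts were used. The submitters' processing notes name FastQC, Trim Galore 0.6.7, HISAT2 2.2.1, StringTie 2.2.1, featureCounts, DESeq2 and the build GRCm38; which tool made the TPM, the annotation and the strand setting are not given in the sources used here. TPM fix each library's total, so a large transcript class lowers all others, and sequencing depth is unknown.

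Rows with a mean of at least 1 TPM (15541 of 52778) entered limma 3.58.1 (R 4.3.3) as log2(TPM + 1), with a trended variance, a two-sided test of cKO against control and Benjamini-Hochberg adjustment over all tested rows. Log2 changes are on that scale, which understates changes of low genes, and SE and 95% intervals come from the same model. The script was tested on simulated data. The limma p-values set the difference between the groups against the spread between these samples. The targeted gene was also tested with a two-sided exact permutation over 70 assignments.

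The members and lists were chosen with earlier results of these data known, so list counts and medians are descriptions. By rule, values in every library were given for the targeted gene, for members with an adjusted p under 0.05 and for the most abundant member of each class, and the 3 partners with the smallest p were named per list. Kif1a and Kif1b, Numa1, Kifap3, Racgap1 and the genes of the marker lists were named in addition, after their values were seen. One list of markers is not reported here. Coordinates are those of the table (GRCm38), and all 38 members have the same ones in RefSeq GRCm38.p6, the source of the promoter windows. The alternatives were pseudocounts of 0.1 and 5, no filter, a filter of 5 TPM, quantile normalization, median-ratio scaling, a total of TPM that leaves out mitochondrial and globin genes, no variance trend, array weights, a replicate block, wider classes and each library left out.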

Additional observations from a re-analysis of the deposited data

Results flagged for a closer look

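In groups of 4 libraries, a library was singled out when its gap to the nearest other library was larger, relative to the group's range, than Dixon's 95% criterion allows. Over 56 groups (28 kinesins in 2 conditions) this picked 2 values, and chance alone picks about 1 group in 20. Kif4 lay at 24.21 TPM in cKO replicate 3, with a gap of 0.951 of the range below the other cKO libraries. Kif4 remained called lower without that library. Kif21a lay at 8.448 TPM in control replicate 3, with a gap of 0.913 of the range below the other controls, and its log2 change went from 0.03 to -0.06 without it.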

How the results depend on the processing

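The median log2 change of mitotic kinesins stayed lower under all alternatives, from -0.32 to -0.27 with single libraries left out, and that of transport kinesins ran from -0.05 to -0.03 there but was -0.014 without mitochondrial and globin genes, -0.018 after quantile normalization, -0.025 without a filter, -0.03 after median-ratio scaling and 0.022 with wider classes. Mitotic calls numbered 4 to 7, and the 1 transport call was kept, with single libraries left out. Over all genes 994 were called, against 347 without a filter, 609 without a variance trend and 390 to 938 with single libraries left out. The called genes were 658 lower and 336 higher, against 380 and 383 after quantile normalization, 469 and 368 after median-ratio scaling, and 396 and 388 without mitochondrial and globin genes. Of 8 called kinesins, 4 lost a call somewhere: Kif15, Kif20b, Kif22 and Kif23, the last only without a filter (adjusted p = 0.0571). Of 20 uncalled kinesins 0 gained one.

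Replicate numbers gave no sign of pairing. Correlations of same-numbered deviations ran from -0.0891 to 0.0674, and those of differently numbered ones from -0.128 to 0.122. Whether libraries shared a litter or a batch was not tested. With a replicate block 420 genes and 4 mitotic kinesins were called, the medians were unchanged at -0.29 and -0.05, and the transport count stayed at 1.

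The sign turned for 6 uncalled kinesins with changes near 0. With single libraries left out, the log2 change of Kif3b ran from -0.022 to 0.052, that of Kif7 from -0.061 to 0.0077, that of Kif24 from -0.039 to 0.135, that of Kif21a from -0.064 to 0.064 and that of Kif21b from -0.053 to 0.112. Rescaled without mitochondrial and globin genes, Kif3c was at 0.0079 and Kif7 at 0.011. The cause was not tested. Kif1a and Kif24 have no value at a filter of 5 TPM. TPM without counts give no limit for values at 0.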
